A study of Mus musculus with 6 samples.

Results

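The genes described here are the targets of the transcription factor Nrf2, Nrf2 itself with its repressor Keap1, and the antioxidant enzymes of the mouse retina. A fixed list named 36 genes, and a gene entered when a probe of the array carried its symbol in the scanner files. This held for 35 of the 36 genes, with 45 probes, out of 26153 genes tested. They were divided into 18 enzymes and transporters called Nrf2-induced, 2 regulators (Nfe2l2, which encodes Nrf2, and Keap1) and 15 enzymes called constitutive here. These names are labels, and being called constitutive does not mean that an enzyme cannot be induced. Msrb1 had no probe of that name. A probe listed as Sepx1 matched it by accession and is given apart.

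Retinas came from male C57BL/6 mice of 8 weeks whose right eye had received titanium dioxide nanoparticles or phosphate-buffered saline (PBS) intravitreally. The groups were nanoparticles at a dose named PTC, nanoparticles at 10 times that dose (10PTC), and PBS. The labels used here do not explain the letters PTC. Each group had 12 mice, eyes were taken after 7 days, and the retinas were pooled by 4, which gave 3 arrays per dose. The treated pool was always labelled with Cy5 and the PBS control with Cy3, so that an effect of the dye cannot be told apart from that of treatment, and each value below is a log2 ratio of treated over PBS. If a single PBS pool served all arrays, testing this ratio against 0 leaves out the spread of the PBS control. The sources used here do not say whether it did, and 3 arrays per dose limit the precision.

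Nrf2 is held in the cytoplasm by Keap1, which delivers it to a ubiquitin ligase for degradation. Oxidants and electrophiles modify Keap1, Nrf2 then enters the nucleus with a small Maf partner, and both bind the antioxidant response element, whose core reads TGACNNNGC. Its targets make glutathione, supply NADPH, reduce thioredoxin and peroxiredoxin, conjugate and export electrophiles, and break down haem. The retina consumes much oxygen and its photoreceptors are rich in oxidisable lipids, so these enzymes are of long-standing interest there.

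The core TGACNNNGC was searched on both strands of the 300 bases around each RefSeq gene start (250 before, 50 after; build GRCm38.p6), because the element is what the induced group is known to share. Of the 36 listed genes, 29 had an entry and 9 of these held the core, which is 31%, against 14% of 27025 genes with an entry. It was found in 7 of 14 induced genes (50%), in 1 of 2 regulators and in 1 of 13 constitutive genes (7.69%). The induced genes were Gclm, Txnrd1, Srxn1, Prdx1, Me1, G6pdx and Abcc4, the regulator was Nfe2l2 and the constitutive gene was Sod1. Gsta4, Prdx6, Msra, Gsr, Sod3, Hmox1 and Gclc had no entry. A match is a description of letters, not of binding, and many known elements lie farther from the start. The core and its 10 flanking bases on each side are shown for the genes whose values are set against each other below, with the core in capitals, each read on the strand that carries it. They lie at chr3:122245413-122245441 (Gclm), chr4:116685456-116685484 (Prdx1), chr9:86695902-86695930 (Me1), chrX:74428919-74428947 (G6pdx), chr10:82859104-82859132 (Txnrd1) and chr16:90220696-90220724 (Sod1), on the plus strand in G6pdx and on the minus strand in the others. The cores of Prdx1 and Me1 also hold TGACTCA, the motif of the transcription factor AP-1.
Gclm: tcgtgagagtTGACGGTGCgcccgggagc
Prdx1: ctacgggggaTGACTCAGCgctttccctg
Me1: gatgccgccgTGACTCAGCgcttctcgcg
G6pdx: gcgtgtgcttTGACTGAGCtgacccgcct
Txnrd1: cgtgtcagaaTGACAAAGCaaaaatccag
Sod1: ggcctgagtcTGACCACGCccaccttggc

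At the lower dose more members were higher than lower, with small shifts, and Hmox1, the best-known inducible target, was not among them. At PTC 11 of 35 members rose and 2 fell at a limma adjusted p under 0.05, the threshold used for every call here. Over all genes tested 16.8% rose and 16.3% fell at PTC. At 10PTC 5 members rose and 3 fell, against 14.4% of all genes higher and 13.3% lower. The members that rose at PTC did so by 0.14 to 0.51 log2 units, which is 1.10-fold to 1.43-fold, with limma adjusted p-values of 0.00154 to 0.0489, and no member's mean reached a 2-fold change at either dose. Gclm, Slc7a11, Me1 and Prdx6 were called higher at both doses, 4 of 35 against 10.6% of all genes, and G6pdx and Msra fell at both, 2 of 35 against 9.22% of all genes. The ratio was above 0 on all 6 arrays for 16 of 35 members, against 21.9% of all genes, and below 0 on all 6 for G6pdx and Msra, 2 of 35 against 21.2%. Slc7a11 passed the filter on dim probes only through the treated channel. A stricter filter, which asked for both channels on each of the 6 arrays, left it out, and 10 of the remaining members rose and 3 fell at PTC and 4 rose and 3 fell at 10PTC. The median over the members was 0.14 at PTC and 0.07 at 10PTC, and the medians of all genes lay within 0.01 of 0.

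These counts depended on the scaling and on single arrays. With arrays centred on their median in place of loess, 23 members were higher and 0 lower at PTC, and 20 were higher and 0 lower at 10PTC. Under that setting 31.4% of all genes were higher and 16.2% lower at PTC, and 36.9% higher and 19.2% lower at 10PTC. The medians of all genes were then 0.05 and 0.08. PTC replicates 1 and 2 shared slide 1, while PTC replicate 3 lay on slide 2 together with the 10PTC arrays. With slide as a block 8 members were called at PTC and 0 at 10PTC, and within slide 2 alone 4 at PTC and 15 at 10PTC, where PTC rests on 1 array. Leaving out PTC replicate 3 lowered the PTC count to 7, and 10 members were called at PTC without PTC replicate 1. At 10PTC no member was called without 10PTC replicate 1 or without 10PTC replicate 3, only Gclm and G6pdx without 10PTC replicate 2, 5 without PTC replicate 3 and 16 without PTC replicate 1. The shares of all genes called under the slide and single-array settings are not given here. These counts are therefore not a result about the members. Calls changed outside the list too. Of 16 microglia and macrophage markers 14 rose at 10PTC, and 2 did with slide as a block. It was 5 without 10PTC replicate 1, 6 without 10PTC replicate 3 and 15 without PTC replicate 1.

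**Figure D1:**
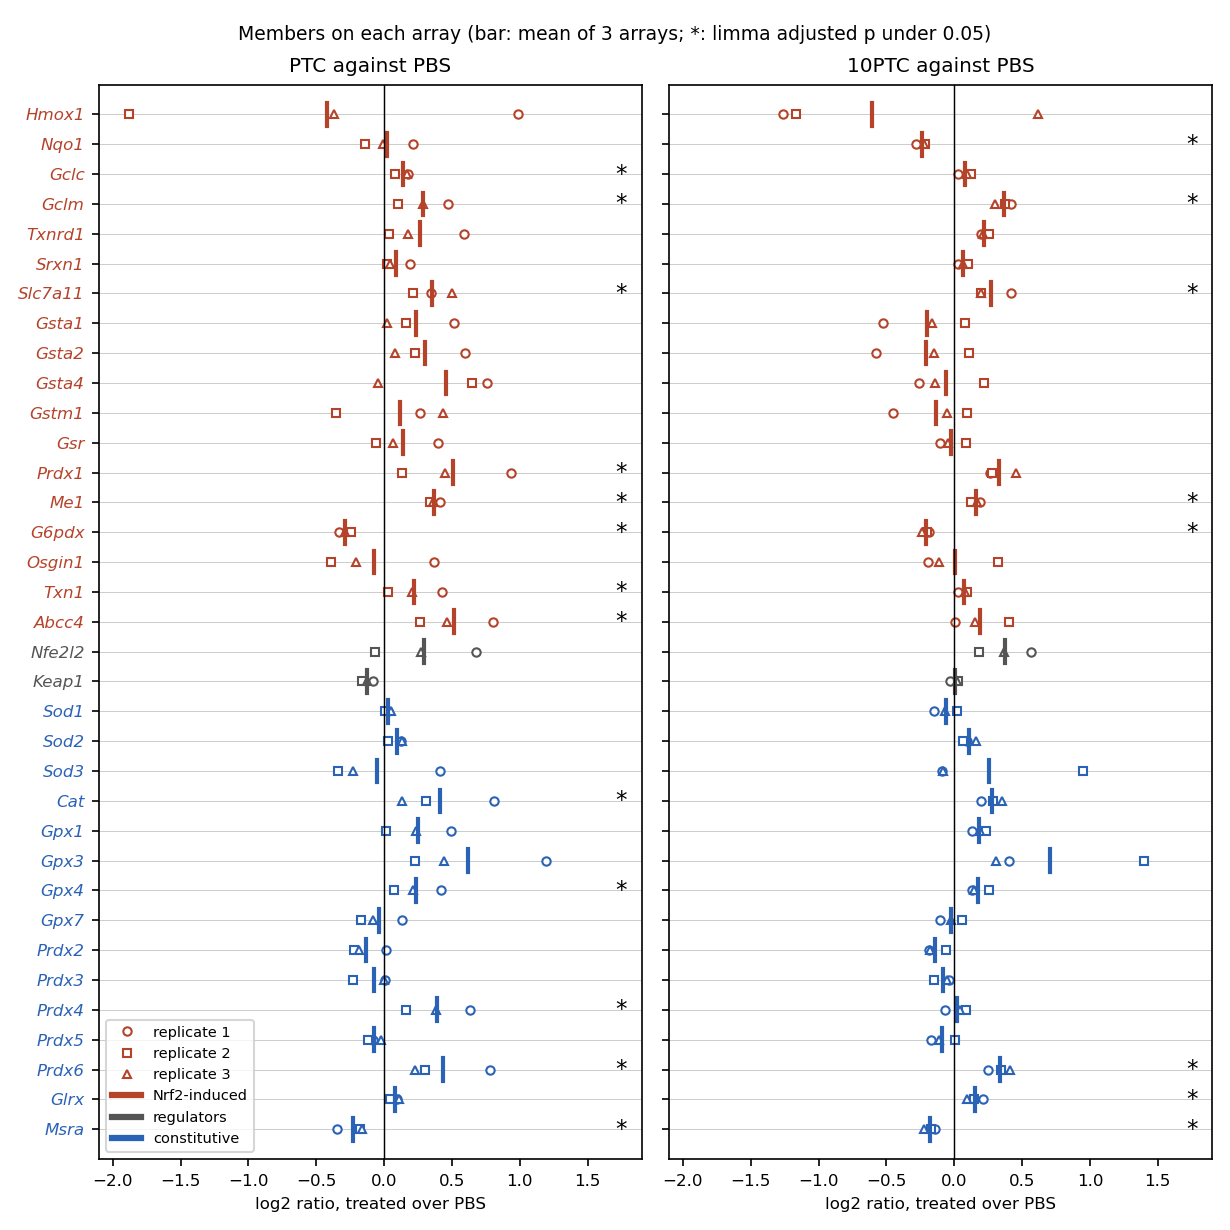
Log2 ratio of treated over PBS for the 35 members (down the page) on the 3 PTC arrays (left) and the 3 10PTC arrays (right), with symbols for replicates, a bar for the mean and an asterisk for a limma adjusted p under 0.05. Most points lie within 1 log2 unit of 0, Hmox1 spreads over 2.87 log2 units, and the replicate 1 circles of PTC lie to the right for most genes.

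The regulators themselves did not pass the test. Nfe2l2 had log2 ratios of 0.68, -0.07 and 0.27 at PTC and 0.57, 0.18 and 0.37 at 10PTC. It was above 0 on 5 of 6 arrays, with limma adjusted p-values of 0.122 and 0.0713. Keap1 had a mean of -0.12 ± 0.04 at PTC (SD, n = 3; limma adjusted p = 0.0509), with all 3 arrays below 0, and of 0.00 ± 0.03 at 10PTC (SD, n = 3; limma adjusted p = 0.960). With median centring Keap1 had means of 0.03 at PTC, not called, and 0.23 at 10PTC, called higher.

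Glutathione synthesis was represented by cystine import and the 2 subunits of the rate-limiting ligase. Gclm, the modifier subunit of glutamate-cysteine ligase, had log2 ratios of 0.47, 0.10 and 0.29 at PTC and 0.42, 0.38 and 0.30 at 10PTC. All 6 arrays were above 0, and the means were 0.29 ± 0.18 and 0.37 ± 0.06 (SD, n = 3 each; limma adjusted p = 0.0181 and 0.0103). The call at PTC was lost without PTC replicate 1 or 3, and that at 10PTC without 10PTC replicate 1 or 3 and with slide as a block. The Gclm core shown above lies from -134 to -126 bases relative to the start of the gene.

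Gclc, the catalytic subunit of the same ligase, moved less. Its ratios were 0.18, 0.08 and 0.17 at PTC and 0.02, 0.12 and 0.09 at 10PTC, all above 0. It passed at PTC only (limma adjusted p = 0.0415, against 0.204 at 10PTC), and the call at PTC was lost in 14 of 23 alternatives, among them the omission of PTC replicate 1 or 3 or of any 10PTC array. Slc7a11, the cystine importer that feeds this ligase, had ratios of 0.34, 0.22 and 0.50 at PTC and 0.42, 0.20 and 0.20 at 10PTC. It was called higher at both doses (limma adjusted p = 0.00896 and 0.0262), the PTC call was lost without PTC replicate 3, and the 10PTC call without any one 10PTC array. Its PBS channel was not well above background on any PTC array and only on 2 of 3 at 10PTC, so that it passed the filter on dim probes only through the treated channel and its call carries no weight of its own. At PTC the fitted 1.28-fold is a point estimate that rests on this dim PBS signal and is not a lower bound. Its log2 ratio at PTC ran from 0.23 to 1.39 over the alternatives. Gsr, which returns oxidised glutathione to its reduced form, did not pass (0.14 ± 0.24 at PTC and -0.02 ± 0.10 at 10PTC, SD, n = 3 each), and both of its probes gave the same signs.

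The 2 members that supply NADPH moved in opposite directions. Me1, the cytosolic malic enzyme, had ratios of 0.41, 0.34 and 0.36 at PTC and 0.19, 0.12 and 0.17 at 10PTC. Its replicates differed by less than 0.1 within each dose, all 6 were above 0, and it rose at both doses (limma adjusted p = 0.00154 and 0.0260). At PTC the call held without any single array. The 10PTC call was lost without any one 10PTC array, with replicate or slide as a block and with the mean of its probes. The other 2 Me1 probes gave 0.29 and 0.13 at PTC and 0.15 and -0.03 at 10PTC. Among all probes only the first of them passed at PTC (limma adjusted p = 0.0055 and 0.0766). Neither passed at 10PTC (limma adjusted p = 0.0545 and 0.690), where the lowest probe differed in sign.

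G6pdx, the glucose-6-phosphate dehydrogenase that opens the pentose phosphate pathway, had ratios of -0.34, -0.25 and -0.29 at PTC and -0.19, -0.20 and -0.23 at 10PTC. It fell at both doses (limma adjusted p = 0.00305 and 0.0118); its promoter holds the core, as that of Me1 does. At PTC the call held without any single array, while the 10PTC call was lost without 10PTC replicate 1 or 3 and with slide as a block. Under median centring the means were -0.13 at PTC and 0.026 at 10PTC, neither of them called, so the direction at 10PTC depended on the scaling.

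In the thioredoxin branch Prdx1, an inducible peroxiredoxin, had ratios of 0.94, 0.13 and 0.45 at PTC and 0.26, 0.28 and 0.46 at 10PTC. All 6 arrays were above 0, and it rose at PTC (0.51 ± 0.41, SD, n = 3; limma adjusted p = 0.0239) but did not pass at 10PTC (limma adjusted p = 0.0986). The PTC call was lost without PTC replicate 3, and the second Prdx1 probe had means of only 0.14 and 0.05, neither called. Txn1, thioredoxin itself, had ratios of 0.43, 0.03 and 0.21 at PTC and 0.03, 0.10 and 0.08 at 10PTC. Its PTC call (limma adjusted p = 0.0489) was lost in 14 of 23 alternatives, including the omission of PTC replicate 1 or 3 or of any 10PTC array.

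Txnrd1, the reductase of thioredoxin, was above 0 on all 6 arrays with means of 0.27 ± 0.29 at PTC and 0.22 ± 0.03 at 10PTC (SD, n = 3 each), and did not pass (limma adjusted p = 0.0651 and 0.120). Srxn1, sulfiredoxin, which repairs over-oxidised peroxiredoxins, was also above 0 on all 6 arrays, with means of 0.08 and 0.07 that did not pass. Osgin1, a stress-induced growth inhibitor, had means of -0.08 ± 0.40 at PTC and 0.00 ± 0.28 at 10PTC (SD, n = 3 each), and its sign differed between arrays of both doses.

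Nqo1, a quinone reductase widely used as the readout of Nrf2 activity, was not called higher at either dose. Its ratios were 0.21, -0.14 and -0.01 at PTC and -0.28, -0.21 and -0.22 at 10PTC. The PTC arrays lay on both sides of 0 (limma adjusted p = 0.827), and all 3 10PTC arrays lay below 0 and passed as lower (-0.24 ± 0.04, SD, n = 3; limma adjusted p = 0.0359). That call was lost without PTC replicate 3, without any one 10PTC array, and under median centring, where the direction stayed the same.

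Hmox1, haem oxygenase 1, breaks haem down to biliverdin, iron and carbon monoxide and is induced in macrophages and glia by haem and oxidants. It had 2 probes, both at chromosome 8 in the mm9 coordinates of the array design, at chr8:77624207-77624266 and chr8:77620797-77620856 on the plus strand. Whether either lies in coding sequence was not determined here. The first 30 of their 60 bases are shown because the probes gave different values.
A_51_P263965: atggttgtaagcatccatgttgactgacca
A_55_P2029687: atagagcgcaacaagcagaacccagtctat

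The probe A_51_P263965, the brighter one and the one used for the gene, had log2 ratios of 0.99, -1.88 and -0.37 at PTC and -1.26, -1.17 and 0.62 at 10PTC. PTC replicate 1 and 10PTC replicate 3 were above 0 and the other 4 arrays below. The means were -0.42 ± 1.43 at PTC and -0.60 ± 1.06 at 10PTC (SD, n = 3 each; limma adjusted p = 0.573 and 0.430). The standard deviation over the 6 arrays, 1.13, was larger than in 99.9% of the genes tested. The treated channel varied more than the PBS channel. The Cy5 signals of the treated pools were 1644, 197 and 992 at PTC and 645, 551 and 2139 at 10PTC, against Cy3 signals of the PBS control of 666, 601 and 934 on the PTC arrays and 902, 917 and 883 on the 10PTC arrays.

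The other probe, A_55_P2029687, had ratios of 0.49, -0.15 and 0.09 at PTC and -0.16, -0.05 and 0.13 at 10PTC. It was dimmer, with treated signals of 168 to 286 against PBS signals of 157 to 196. Its range over the arrays was 0.65 log2 units, against 2.87 for the first probe, and both probes were highest on PTC replicate 1 and, among the 10PTC arrays, on 10PTC replicate 3. The mean of the 2 probes was -0.14 at PTC and -0.32 at 10PTC. No setting called Hmox1 at either dose. Its PTC mean was -1.13 without PTC replicate 1 and 0.31 without PTC replicate 2, and its 10PTC mean ran from -1.22 without 10PTC replicate 3 to -0.28 without 10PTC replicate 1.

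**Figure D2:**
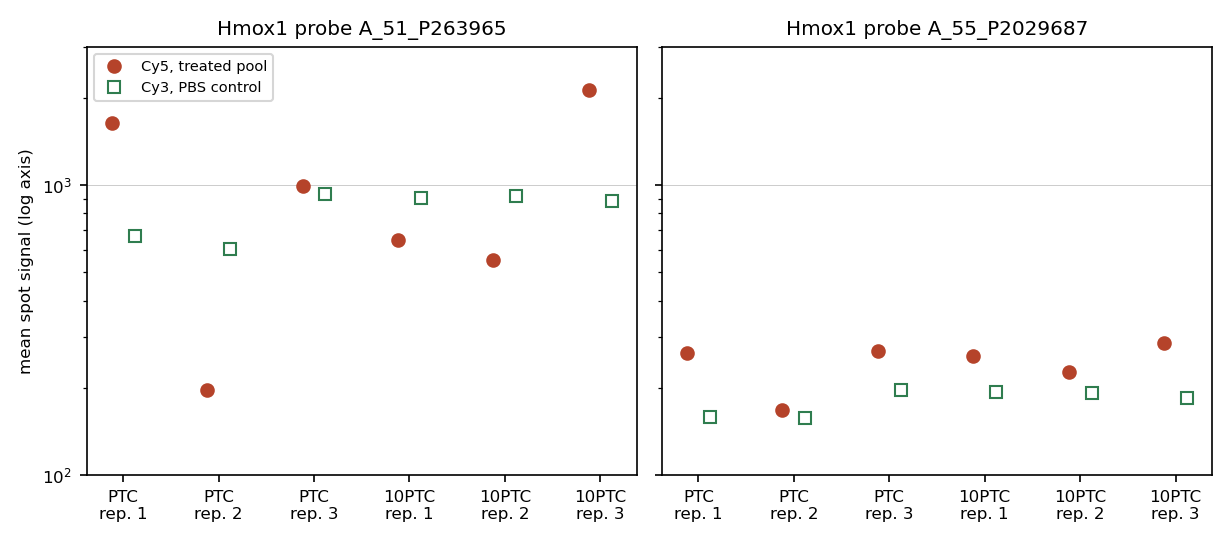
Mean spot signal (log axis) of the 2 Hmox1 probes on the 6 arrays, with Cy5 of the treated pool left of Cy3 of the PBS control. The Cy5 signal of A_51_P263965 runs from 197 to 2139 while its Cy3 signal stays between 601 and 934.

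Microglia and macrophages express Hmox1, and their markers moved over the same arrays. The median of 16 such markers was 1.67, 0.61 and 1.11 at PTC and 0.83, 0.81 and 1.01 at 10PTC, highest at each dose on the array with the highest Hmox1 ratio. Of these markers 14 rose and 0 fell at both doses, but at 10PTC only 5 rose without 10PTC replicate 1, 6 without 10PTC replicate 3 and 2 with slide as a block. Examples are Aif1 (1.24 ± 0.52 at PTC and 1.08 ± 0.17 at 10PTC, SD, n = 3 each), a calcium-binding protein of microglia, and Cx3cr1 (1.34 ± 0.47 and 1.07 ± 0.11), the fractalkine receptor. Haem comes largely from red blood cells, whose 4 measured markers of 8 had medians of -0.50, -1.63 and -1.78 at PTC and -1.18, -1.31 and -1.13 at 10PTC. These medians were highest on the same 2 arrays as the microglia markers. So were those of Muller glia markers (0.32 on PTC replicate 1 and 0.25 on 10PTC replicate 3), so the match was not particular to microglia. The part of any of these cell types in the Hmox1 values was not tested. In pooled whole tissue, more or fewer cells of a type and more or less RNA per cell cannot be told apart.

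The glutathione transferases, which conjugate electrophiles to glutathione, did not pass at either dose. Gsta4 had ratios of 0.76, 0.65 and -0.05 at PTC and -0.26, 0.22 and -0.14 at 10PTC (limma adjusted p = 0.0592 and 0.800). Gsta1 had means of 0.23 at PTC and -0.20 at 10PTC and Gsta2 of 0.30 and -0.21, with signs that differed between 10PTC arrays. The 2 transcripts cannot be separated well by these probes, whose aligned parts share 46 of 50 bases, and their first 30 bases are shown for that reason.
Gsta1: ctggcctctaatggtttgcaattataaaaa
Gsta2: gccacagatactggcctctaattgtttgca

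The 2 probes lie at chr9:78090411-78090470 on the plus strand and chr9:78178856-78178915 on the minus strand (mm9). Gstm1 had ratios of 0.27, -0.36 and 0.44 at PTC and -0.45, 0.10 and -0.05 at 10PTC, and its second probe gave ratios within 0.11 of these on every array. The array design places the used probe on chromosome 5 and the second one on chromosome 3, where RefSeq places the Gstm1 gene. Whether the used probe reads other sequences was not tested. Abcc4, which exports glutathione conjugates and cyclic nucleotides, had ratios of 0.80, 0.27 and 0.47 at PTC and 0.00, 0.40 and 0.15 at 10PTC. It rose at PTC (0.51 ± 0.27, SD, n = 3; limma adjusted p = 0.0116), a call that held without any single array, and did not pass at 10PTC (limma adjusted p = 0.230).

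Among the constitutive enzymes the superoxide dismutases, which turn superoxide into hydrogen peroxide, did not pass. Sod1, the cytosolic enzyme, had means of 0.03 ± 0.02 at PTC and -0.06 ± 0.09 at 10PTC, and Sod2, the mitochondrial one, 0.10 ± 0.06 and 0.11 ± 0.05 (SD, n = 3 each). Sod2 was above 0 on all 6 arrays. Sod3, the extracellular enzyme, had ratios of 0.41, -0.34 and -0.23 at PTC and -0.09, 0.95 and -0.08 at 10PTC, with 1 high array at each dose.

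Catalase, which removes hydrogen peroxide in peroxisomes, rose at PTC. Cat had ratios of 0.81, 0.31 and 0.13 at PTC and 0.20, 0.28 and 0.35 at 10PTC. All 6 arrays were above 0, with limma adjusted p-values of 0.0294 and 0.110, and the PTC call was lost without PTC replicate 2 and without 10PTC replicate 2 or 3. The second Cat probe gave means of 0.14 at PTC and 0.21 at 10PTC and, among all probes, passed only at 10PTC (limma adjusted p = 0.0689 and 0.0204), so the dose at which catalase was called differed between its probes.

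Of the glutathione peroxidases, Gpx4, which reduces lipid hydroperoxides in membranes, rose at PTC. Its ratios were 0.42, 0.07 and 0.22 at PTC and 0.13, 0.26 and 0.14 at 10PTC (limma adjusted p = 0.0330 and 0.0892). The PTC call was lost without PTC replicate 1 or 3 or 10PTC replicate 1 or 3. Gpx1, the cytosolic enzyme, was above 0 on all 6 arrays and did not pass, with means of 0.25 ± 0.24 at PTC and 0.19 ± 0.05 at 10PTC (SD, n = 3 each; limma adjusted p = 0.0530 and 0.132). Gpx7, a peroxidase of the endoplasmic reticulum, had means of -0.04 and -0.02.

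Gpx3, the secreted glutathione peroxidase, had the highest mean of any member at both doses and did not pass. Its ratios were 1.19, 0.23 and 0.44 at PTC and 0.41, 1.40 and 0.31 at 10PTC. All 6 arrays were above 0, and the limma adjusted p-values were 0.0848 and 0.0652. Gpx3 and Sod3, which both encode secreted enzymes, were highest on the same array of each dose, PTC replicate 1 and 10PTC replicate 2. Markers of the retinal pigment epithelium and of pigment had a median of 0.43, 0.26 and 0.29 at PTC and 0.07, 0.40 and 0.14 at 10PTC, highest on those same 2 arrays. The medians of endothelium markers and of fat and connective tissue markers were highest on those 2 arrays too. So were the medians of the induced and of the constitutive members, so the match was not particular to pigment epithelium. The part of any of these cell types in the 2 genes was not tested.

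The constitutive peroxiredoxins, which reduce peroxides at the expense of thioredoxin or glutathione, divided. Prdx6, the one that also works with glutathione and on phospholipids, had ratios of 0.78, 0.30 and 0.23 at PTC and 0.25, 0.35 and 0.41 at 10PTC. It rose at both doses (limma adjusted p = 0.0158 and 0.0439), and the PTC call held without any single array. The 10PTC call was lost without any one 10PTC array, in the authors' table, with processed signals and with replicate or slide as a block. Its 4 probes had means of 0.13 to 0.64 at PTC and 0.07 to 0.54 at 10PTC, all above 0, and 3 of the 4 passed at each dose.

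Prdx4, the peroxiredoxin of the endoplasmic reticulum, had ratios of 0.63, 0.16 and 0.38 at PTC and -0.07, 0.09 and 0.04 at 10PTC. The PTC arrays all lay above the 10PTC arrays. It rose at PTC (0.39 ± 0.24, SD, n = 3; limma adjusted p = 0.0122), a call lost without PTC replicate 3, and not at 10PTC (0.02 ± 0.08; limma adjusted p = 0.877), and the difference between the doses did not pass (-0.37, limma adjusted p = 0.570). Prdx2, of the cytosol and abundant in red blood cells, had means of -0.13 at PTC and -0.14 at 10PTC, Prdx3, of mitochondria, -0.08 and -0.08, and Prdx5 -0.07 and -0.09. None of these 3 passed, and all 6 of these means were positive under median centring, with Prdx5 called higher at 10PTC.

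The repair enzymes moved in opposite directions. Glrx, glutaredoxin, which removes glutathione from protein thiols, had ratios of 0.10, 0.04 and 0.11 at PTC and 0.21, 0.15 and 0.10 at 10PTC, and rose at 10PTC only (limma adjusted p = 0.172 at PTC and 0.0359 at 10PTC). Msra, which reduces oxidised methionine in proteins, had ratios of -0.35, -0.18 and -0.16 at PTC and -0.14, -0.17 and -0.22 at 10PTC. It fell at both doses (limma adjusted p = 0.0130 and 0.0356), but under median centring its 10PTC mean was 0.046. The 10PTC calls of both genes were lost without PTC replicate 3 and without any one 10PTC array. The probe listed as Sepx1, which matched Msrb1, the selenium-containing partner of Msra, had means of -0.02 at PTC and -0.03 at 10PTC that did not pass.

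Set side by side, 7 of 18 induced members rose and 1 fell at PTC, and 4 of 15 constitutive members rose and 1 fell. At 10PTC 3 induced members rose and 2 fell, and 2 constitutive members rose and 1 fell. Over all genes 16.8% rose and 16.3% fell at PTC, and 14.4% rose and 13.3% fell at 10PTC. The shares that rose at 10PTC, 16.7% of induced and 13.3% of constitutive members, were near that of all genes. The induced counts at both doses include Slc7a11, which passed the filter only through the treated channel. The median of the induced members was 0.42, 0.06 and 0.12 on the PTC arrays and -0.05, 0.11 and 0.07 on the 10PTC arrays. That of the constitutive members was 0.14, 0.02 and 0.11 at PTC and -0.04, 0.09 and 0.04 at 10PTC. The induced minus the constitutive median was 0.11 ± 0.15 at PTC and 0.02 ± 0.02 at 10PTC (SD, n = 3 each), which is within the spread between the PTC arrays and no larger than that between the 10PTC arrays. Without PTC replicate 1 the PTC difference was 0.03. PTC replicate 1 was the highest of the 6 arrays for 24 of 35 members, and the microglia and NADPH oxidase medians were highest on it too.

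**Figure D3:**
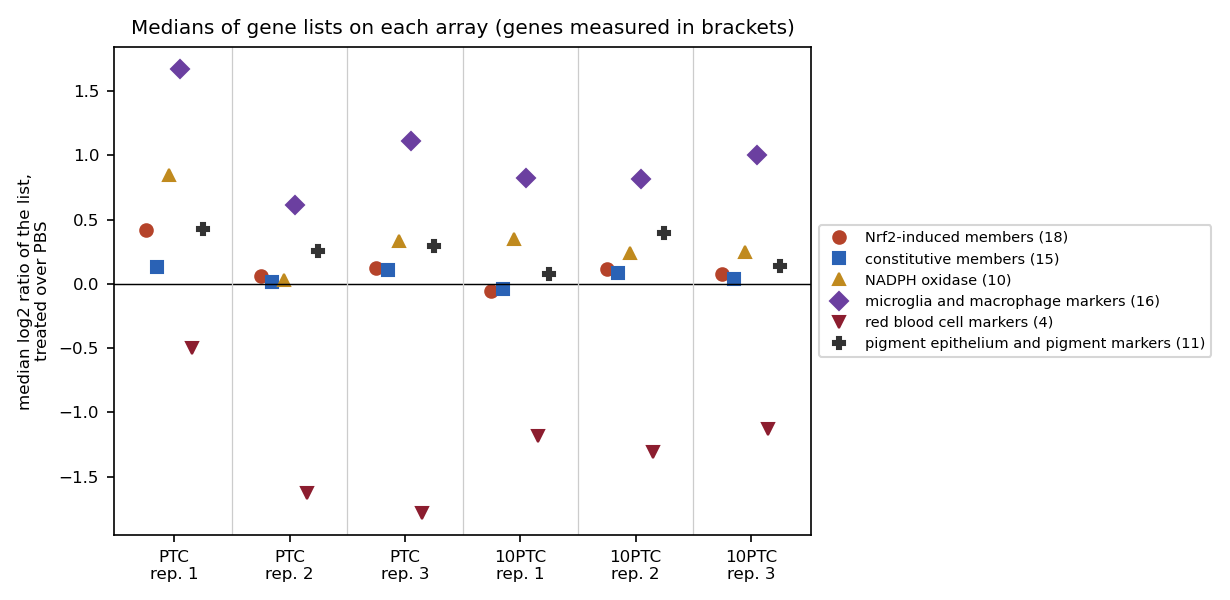
Median log2 ratio of treated over PBS of 6 gene lists on each array, with the number of genes measured in brackets. The induced and constitutive members stay between -0.05 and 0.42, the microglia and macrophage markers between 0.61 and 1.67, and the red blood cell markers between -1.78 and -0.50.

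The direct comparison of 10PTC with PTC asked whether the higher dose changed the members further. None of the 35 was called, with limma adjusted p-values of 0.566 to 0.989, and 0% of all genes were called. At an unadjusted p under 0.05, 5 members differed, Nqo1, Gsta1, Gsta2, Me1 and Prdx4, all lower at 10PTC, and 8.16% of all genes did. The smallest unadjusted p was that of Me1 (0.00796), with a difference of -0.21 ± 0.06 (SE). The count of members called stayed 0 under every alternative run. A p that misses the threshold does not show that the doses act alike.

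Other genes of the pathway were read from fixed lists. The shares over all genes, for every list from here on, were 16.8% higher and 16.3% lower at PTC. At 10PTC they were 14.4% and 13.3%. Under median centring they were 31.4% and 16.2% at PTC and 36.9% and 19.2% at 10PTC. No test over a list was made, and a count near these shares is not a result about its list. Of 21 other Nrf2 targets 6 rose and 4 fell at PTC, and 2 rose and 3 fell at 10PTC, with medians of 0.04 and -0.05. Abcc3, an exporter of conjugates, rose by 1.32 ± 0.84 at PTC (limma adjusted p = 0.00915) and was 0.71 ± 0.14 at 10PTC (limma adjusted p = 0.0784). Fth1, the ferritin heavy chain that stores iron, rose at both doses (0.33 ± 0.21 and 0.24 ± 0.03), as did the exporter Abcc1 (0.27 ± 0.18 and 0.39 ± 0.12). Tkt, transketolase of the pentose phosphate pathway, fell to -0.69 ± 0.17 and -0.70 ± 0.22, and Idh1, an isocitrate dehydrogenase that makes NADPH, to -0.28 ± 0.12 and -0.35 ± 0.05. Gpx2, a further glutathione peroxidase, fell at PTC (-0.35 ± 0.14) and was -0.20 ± 0.09 at 10PTC (SD, n = 3 for each value here and in the next paragraphs). Under median centring 12 of the 21 were higher and 3 lower at each dose, and with slide as a block 3 were higher and 4 lower at PTC and 0 higher and 1 lower at 10PTC. Without 10PTC replicate 1, 0 were higher and 1 lower at 10PTC. Tkt was called at 10PTC in all 22 alternatives run and at PTC in 22 of 23. The PTC call of Idh1 was lost under median centring.

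Of 19 other glutathione transferases 1 rose and 2 fell at PTC, and 0 rose and 5 fell at 10PTC, with medians of -0.04 and -0.08. Mgst1, a microsomal transferase, rose at PTC (0.47 ± 0.48, limma adjusted p = 0.0481), and Mgst3 fell at both doses (-0.58 ± 0.13 and -0.63 ± 0.17), as did Gstk1 (-0.19 ± 0.05 and -0.19 ± 0.07), the mitochondrial and peroxisomal transferase. Gstz1, a transferase of tyrosine breakdown, fell at 10PTC (-0.33 ± 0.06). Under median centring 5 of the 19 were higher and 1 lower at PTC and 4 higher and 1 lower at 10PTC, with Mgst3 still called lower at both doses while Gstk1 was no longer called at either dose and its 10PTC ratio turned positive. The call of Mgst1 was lost without PTC replicate 1 or 3 or any one 10PTC array, and without 10PTC replicate 1 only 1 of the 19 fell at 10PTC. Of 21 other glutathione and thioredoxin genes 2 rose and 3 fell at PTC, and 0 rose and 2 fell at 10PTC, with medians of -0.05 and -0.09. Gpx8 (0.60 ± 0.42) and glutathione synthetase, Gss (0.33 ± 0.23), rose at PTC. Ggt7, of the gamma-glutamyltransferase family, fell to -0.85 ± 0.23 at PTC and -0.58 ± 0.18 at 10PTC, mitochondrial Txn2 fell at PTC (-0.21 ± 0.07), and Txnrd3 fell at 10PTC (-0.23 ± 0.08). Under median centring 5 of the 21 were higher and 1 lower at PTC and 11 higher and 2 lower at 10PTC, and without PTC replicate 3 0 were higher at PTC.

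Of 12 other regulators of the pathway 4 rose and 2 fell at PTC, and 4 rose and 1 fell at 10PTC, with medians of 0.08 at both doses. Maff, a small Maf partner of Nrf2, rose by 0.46 ± 0.30 at PTC and 0.54 ± 0.04 at 10PTC (limma adjusted p = 0.0124 and 0.00958). Bach1, which competes with Nrf2 for the same element and represses Hmox1, rose by 0.20 ± 0.08 and 0.21 ± 0.04 (limma adjusted p = 0.0139 and 0.0159). Rbx1, a subunit of the ligase that degrades Nrf2, rose by 0.21 ± 0.07 and 0.15 ± 0.04. Bach2, a relative of Bach1, fell at PTC (-0.23 ± 0.05), Mafg fell at PTC (-0.21 ± 0.12) and Nfe2l1, an Nrf2 relative, fell at 10PTC (-0.18 ± 0.06). Under median centring 8 of the 12 were higher and 1 lower at each dose. Without 10PTC replicate 1 or 3 none was called at 10PTC, and with slide as a block 3 were higher and 2 lower at PTC and 0 were called at 10PTC.

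The NADPH oxidase of phagocytes is a source of superoxide rather than a defence against it. Of 10 measured genes of the oxidase family 5 rose and 0 fell at PTC, and 0 rose and 1 fell at 10PTC, with medians of 0.43 and 0.28. The subunit genes Cyba (0.93 ± 0.81 at PTC and 0.78 ± 0.18 at 10PTC), Ncf4 (0.81 ± 0.67 and 0.63 ± 0.05) and Rac2 (0.66 ± 0.55 and 0.45 ± 0.05) rose at PTC and did not pass at 10PTC (limma adjusted p = 0.0551, 0.0589 and 0.0895). Nox1, a catalytic subunit best known from the colon, fell at 10PTC (-0.43 ± 0.21). Without PTC replicate 3, or with slide as a block, none of the 10 was called at PTC, and 5 were higher at 10PTC without PTC replicate 1. Under median centring 5 were higher and 2 lower at PTC and 3 higher and 3 lower at 10PTC. At PTC the medians of the oxidase genes and of the microglia markers given beside Hmox1 ranked the arrays alike. At 10PTC the oxidase median was highest on replicate 1 (0.35) and the microglia median on replicate 3 (1.01). The part of microglia in the oxidase values was not tested.

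**Figure D4:**
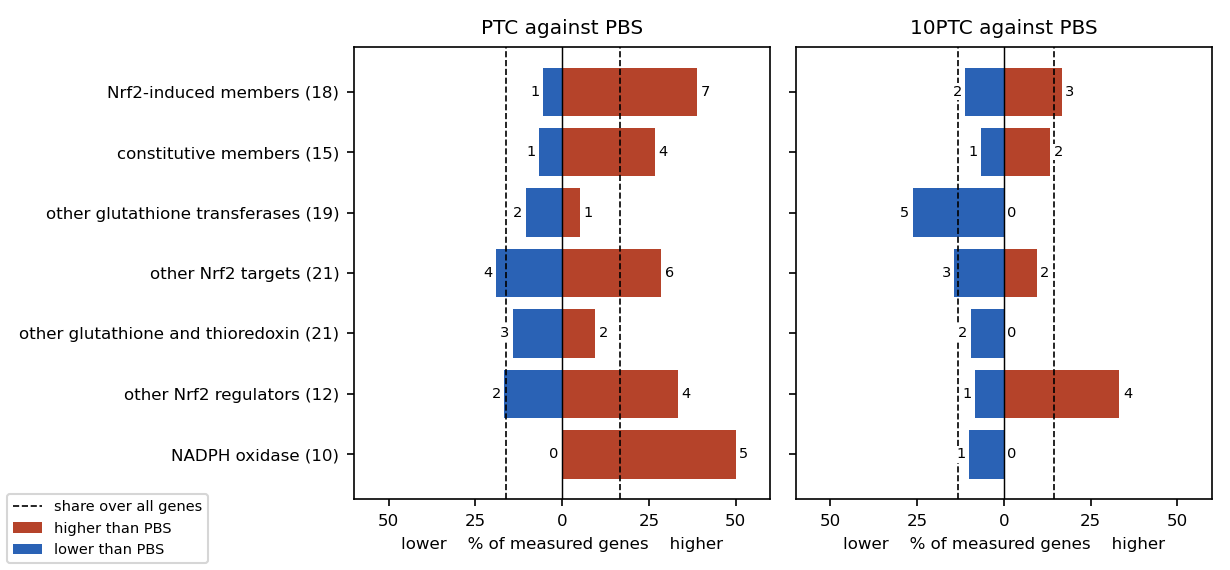
Share of measured genes called higher (right of 0) and lower (left of 0) than PBS at PTC and at 10PTC for 7 gene lists, with the number called at the end of each bar, the number measured in brackets and dashed lines at the shares over all genes (16.8% and 16.3% at PTC, 14.4% and 13.3% at 10PTC). At PTC 7 of 18 induced and 4 of 15 constitutive members lie on the higher side, and at 10PTC 5 of 19 other glutathione transferases lie on the lower side. The 7 include Slc7a11, whose PBS channel was dim.

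Across the series, between 71.0% and 85.5% of gene spots were well above background and no spot was saturated. Markers of reactive glia rose in 13 of 13 genes at both doses, but at 10PTC in 7 without 10PTC replicate 1 and in 6 with slide as a block. All 15 skeletal muscle genes fell at both doses, with medians of -2.95 and -2.41, and 11 of them at 10PTC with slide as a block. Ganglion cell markers fell in 9 of 12 genes at PTC and 8 of 12 at 10PTC, where the count was 4 under median centring or without 10PTC replicate 2, and 1 without 10PTC replicate 1, without 10PTC replicate 3 or with slide as a block. The labels name separate pools of retinas as replicates, and the sources used here do not say whether the PBS control of all arrays was 1 pool, so the comparisons of both doses with PBS may share control RNA.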

How the data were processed

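Retinal RNA was measured on 6 two-channel Agilent arrays (design 026655, 60-base probes). The scanner files hold intensity values and log10 ratios made, per the file headers, with Agilent Feature Extraction 10.7.3.1, while the submitters' processing notes name 9.3.2.1. The authors also deposited log2 ratios, whose slope of 3.32 on the log10 ratios gives the scale. Their direction is Cy5 over Cy3, their medians per array lie between -0.075 and 0.039, and which centring they had is unknown.

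In limma 3.58.1 (R 4.3.3), the mean signal was corrected by the median local background with normexp (offset 50) and normalized by loess, with 1377 control spots at weight 0 and outlier spots left out. Repeated spots were averaged per probe. Of 39429 probes, 32511 were kept because a channel was flagged well above background on 3 or more of the 6 arrays, and 6918 were not. All 45 member probes passed. The brightest probe of a gene was used, and the other probes were tested among all of these probes. A model with 1 coefficient per dose (4 residual and 3.4 prior degrees of freedom) was fitted to 26153 genes, with Benjamini-Hochberg adjustment over all of them at 0.05, and was tested on simulated data. Gene names of 30180 probes came through RefSeq tables and 9249 kept the file's name. No genome was used. Motifs were searched in RefSeq promoter entries with Python 3.11.15.

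The members and lists were chosen with earlier results of these data known. All members are described. From every other pathway list up to 3 genes per direction, those of smallest p among the genes called, are named, and from cell marker lists at most the first 2 measured. Alternatives covered background correction, normalization, filters, outlier spots, the choice of probe, the authors' table, each dose alone, moderation, replicate and slide blocks, single slides and each array left out. Precision is set by signal over background: median signals were 153 to 221 in Cy3 and 187 to 347 in Cy5, against backgrounds of 26 to 29 and 47 to 48.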

Additional observations from a re-analysis of the deposited data

How the results depend on the processing

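At PTC 13 members were called, and 8 with the scanner software's processed signals, 8 in the authors' table, 4 with each dose fitted alone, 23 with median centring, 8 with slide as a block, 1 within slide 1 and 4 within slide 2. With each array left out in turn it was 7 to 15. At 10PTC 8 were called, and 4 with processed signals, 4 in the authors' table, 3 with a normexp offset of 0, 15 with each dose alone, 20 with median centring, 4 with the replicate block, 0 with slide as a block and 15 within slide 2. With each array left out it was 0 to 16. The shares of all genes changed with the setting too. At PTC 16.8% rose and 16.3% fell in the main fit, 13.8% and 16.7% with processed signals, and 15.2% and 15.4% in the authors' table. At 10PTC 14.4% rose and 13.3% fell, 8.53% and 8.38% with processed signals, and 9.77% and 7.76% in the authors' table. With a normexp offset of 0 they were 10.4% and 9.98% at 10PTC. For the blocks, single slides and omitted arrays they are not given here. With the replicate block 10 members were called at PTC and 0 between the doses. The replicate numbers do not pair the arrays: deviations of same-numbered arrays correlated at -0.27, 0.15 and 0.20. Under median centring the 10PTC means of G6pdx (0.026), Sod1 (0.24), Prdx5 (0.18) and Msra (0.046) turned positive. Each of these was called in the main fit or under that setting. Uncalled means, such as those of Prdx2 and Prdx3, turned positive as well. The induced minus the constitutive median turned to -0.030 under that setting. Leaving out each array put this difference at 0.03 to 0.16 at PTC and 0.01 to 0.03 at 10PTC. The cause was not tested. Of 804 single-gene values at PTC, 698 kept their side of the threshold (21 changed sign without being called), 80 lost the call, 26 gained one and 0 reversed. Of 769 at 10PTC, 669 kept their side (22 changed sign uncalled), 56 lost the call, 40 gained one and 4 reversed. Adding Msrb1, chosen after seeing the data, left the counts at 13, 8 and 0. Aquantile normalization leaves each ratio as it is by construction. A dim PBS channel leaves the size of the Slc7a11 ratio at PTC uncertain, where its log2 ratio ran from 0.23 under median centring to 1.39 in the authors' table.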

Other observations

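The members differed in how much they varied between pools. The standard deviation over the 6 arrays lay in the top 5% of all genes tested (at or above the 95th percentile) for 11 of 35 members, namely Hmox1, Gsta1, Gsta2, Gsta4, Gstm1, Prdx1, Osgin1, Abcc4, Nfe2l2, Sod3 and Gpx3. They were 8 of 18 induced members, 1 of 2 regulators and 2 of 15 constitutive members, and they were named after their values were seen. At the other end Sod2 and G6pdx had standard deviations of 0.05 and 0.06 over the 6 arrays. The 3 alpha-class glutathione transferases Gsta1, Gsta2 and Gsta4 were highest on PTC replicate 1 and lowest on 10PTC replicate 1, with ranges of 1.04, 1.17 and 1.02 log2 units. The similarity of the Gsta1 and Gsta2 probes given above bears on 2 of the 3. The pattern was not particular to these transferases. PTC replicate 1 was the highest array for 24 of 35 members. The induced and the constitutive medians were lowest on 10PTC replicate 1 (-0.05 and -0.04).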
